A study of Mus musculus with 44 samples.

Results

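Actin filaments push the plasma membrane forward and pull it back, and the genes described here encode 50 proteins of that machinery that microglia are known to use for motility. The members were a list of 50 gene symbols, chosen for function, and all 50 were found among the 50714 gene identifiers that the count files of both library sets share. From general knowledge of where each gene is made, 17 members were classed as hematopoietic (made mainly by blood-derived cells and microglia), 26 as ubiquitous and 7 as mixed. Whether each class holds in this tissue was not tested. By role, 8 members were actins or bind actin monomers, 7 were subunits of the Arp2/3 complex and 6 belonged to the WASP and WAVE regulators of that complex. Another 9 bound, capped, bundled or elongated filaments, 13 were small GTPases or their regulators, and 7 linked actin to adhesion sites and the membrane.

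RNA came from dorsal cortex and hippocampus of mice killed on postnatal day 28 or 29. All mice carried 1 copy each of CX3CR1-CreERT2 and of a floxed RPL10a-GFP. In the design, Cx3cr1-expressing cells make a Cre that tamoxifen activates, and recombined cells then carry GFP on their ribosomes. Cx3cr1 is a microglial gene in brain tissue that other macrophages also express. Tamoxifen was given at 100 mg/kg on postnatal days 15, 17 and 19. Controls had the same genotype and were given vehicle per the sample labels, but are described as untreated in the series design. From each replicate letter 4 fractions were sequenced. Input held the RNA of the homogenate, MG_TRAP its GFP immunoprecipitate (translating ribosome affinity purification), SN_input the RNA of the synaptosome fraction, and PeMP_TRAP the immunoprecipitate from synaptosomes, which is meant to hold ribosomes of peripheral microglial processes. There were 3 control letters (A, B and C) and 8 tamoxifen letters, of which D, E and F were in the same set as the controls (the first, 24 libraries). Letters G to K made up the second set (20 libraries). The labels do not say whether a letter is 1 animal, so p-values measure the spread between these libraries. In bulk RNA, fewer cells of a type and less RNA per cell cannot be told apart.

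As background, new filament branches grow from the Arp2/3 complex, which is switched on by WASP downstream of Cdc42 and by the WAVE complex downstream of Rac. Profilin and thymosin beta hold the pool of actin monomers, cofilin severs old filaments, and coronins, plastins and capping proteins set how long branches last and how they are bundled. Blood-derived cells build the same machine with their own variants, such as Nckap1l in the WAVE complex in place of Nckap1 and Lcp1 in place of other plastins. Microglia use it to extend and retract the processes with which they scan brain tissue.

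Assigned reads per library ranged from 746616 to 35584637, and the limit that an observed 0 leaves (3 counts, called the floor here) equalled 0.0847 to 4.05 CPM, the count scaled to a common library total. Intervals and floors of this kind cover counting error only, since amplified reads carry no molecular identifiers. Values by library are given as log2 CPM with a prior count of 2, on which a count of 0 reads -2.81. Libraries of PeMP_TRAP in the second set were sparse, with 5372 to 7369 genes detected in spite of at least 20442643 assigned reads, and 3 to 6 members at a count of 0. The SN_input library of tamoxifen replicate D stood apart, with 10 members at a count of 0, against at most 2 in any other SN_input library of either treatment. Summed over 8 markers (Cx3cr1, Tmem119, P2ry12 and 5 others), the microglial level was 82.9 to 156 CPM in tamoxifen Input and 5640 to 22000 CPM in tamoxifen MG_TRAP. It was 837 to 2660 CPM in control MG_TRAP, above the 92.3 to 156 CPM of control Input.

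The windows before the start sites are shown because PU.1 is a transcription factor of the myeloid lineage. A link between these motifs and the differences between fractions was not tested. RefSeq promoter windows (GRCm38.p6, 250 bases before to 50 after the start) matched 41 of the 50 members by symbol. The PU.1 core GAGGAAGT, searched on both strands, was in 3 of 14 hematopoietic windows (21.4%), 1 of 21 ubiquitous windows (4.76%) and 2 of 6 mixed windows (33.3%), against 3.69% of all 27025 genes in the table. A CArG box, the site of serum response factor in actin genes, was in 2 ubiquitous windows, those of Actg1 and Arpc4, and in 1.81% of all genes. The 100 bases before the start site follow for 2 hematopoietic members whose RefSeq start is also the start of the annotated gene, 5′ to 3′ on the gene's strand, with the PU.1 core in capitals. A match describes letters and not binding. The stretches are chr17:57279000-57279099 for Vav1 and chr1:87620212-87620311 for Inpp5d, both on the plus strand.
Vav1: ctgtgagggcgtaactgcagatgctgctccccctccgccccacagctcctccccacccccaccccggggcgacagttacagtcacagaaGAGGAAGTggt
Inpp5d: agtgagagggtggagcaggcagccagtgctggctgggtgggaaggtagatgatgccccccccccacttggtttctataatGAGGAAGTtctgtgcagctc
Both stretches hold the core on the gene's strand within 20 bases of the start, and the third hematopoietic match was Fmnl1, with the core on the opposite strand.

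In tamoxifen MG_TRAP, Tmsb4x alone took 9.06% of assigned reads in the first set and Actb 4.18% in the second, the largest part of the members' reads in each. Together the 50 members took 1.36% ± 0.31 of assigned reads in tamoxifen Input and 8.75% ± 4.59 in MG_TRAP (SD, n = 8 each). In SN_input they took 1.72% ± 0.86 and in PeMP_TRAP 6.68% ± 1.15 (SD, n = 8 each). Control MG_TRAP and control PeMP_TRAP stood at 1.38% ± 0.49 and 0.94% ± 0.17 (SD, n = 3 each), below every tamoxifen library of the same fraction. Per kilobase of exon (RPKM, CPM divided by exon length), Tmsb4x was the highest member in MG_TRAP of the first set, at 66090 ± 48750 RPKM, followed by Aif1 at 4552 ± 3161 RPKM and Actb at 2352 ± 309 RPKM (SD, n = 3). In MG_TRAP of the second set the order was Actb at 15610 ± 2905 RPKM, Tmsb4x at 4799 ± 1394 RPKM and Cfl1 at 928 ± 139 RPKM (SD, n = 5). Next in that set came Pfn1 at 792 ± 175 RPKM and Aif1 at 676 ± 162 RPKM, and neighbours among Cfl1, Pfn1 and Aif1 differed by less than the larger of their SDs.

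Levels of several members of the actin monomer pool shifted between the 2 sets. Actg1, which encodes the other cytoplasmic actin, had 0 to 10 counts in every library of the first set and 1033 to 9852 counts in every library of the second. Its transcripts share 37.4% of their 50-base stretches with 25 other genes, and how the authors counted reads that fit several places in each set is not given in the sources used here. In MG_TRAP of tamoxifen mice, Tmsb4x had a log2 CPM of 16.19 ± 1.51 in the first set and 12.17 ± 0.46 in the second (SD). Actb was the other way round, at 12.70 ± 0.24 and 14.86 ± 0.28 in the same order. Tmsb10 in tamoxifen Input was also lower in the first set, at 5.44 ± 0.49 against 7.59 ± 0.11 (SD), with no overlap. Set and preparation cannot be told apart, so fold changes are fitted within a set or with set as a term. Between tamoxifen fractions, shares of reads, class ratios, ranges of library values and overlap pool both sets unless a set is named. An overlap given there can come from the shift between sets.

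**Figure D1:**
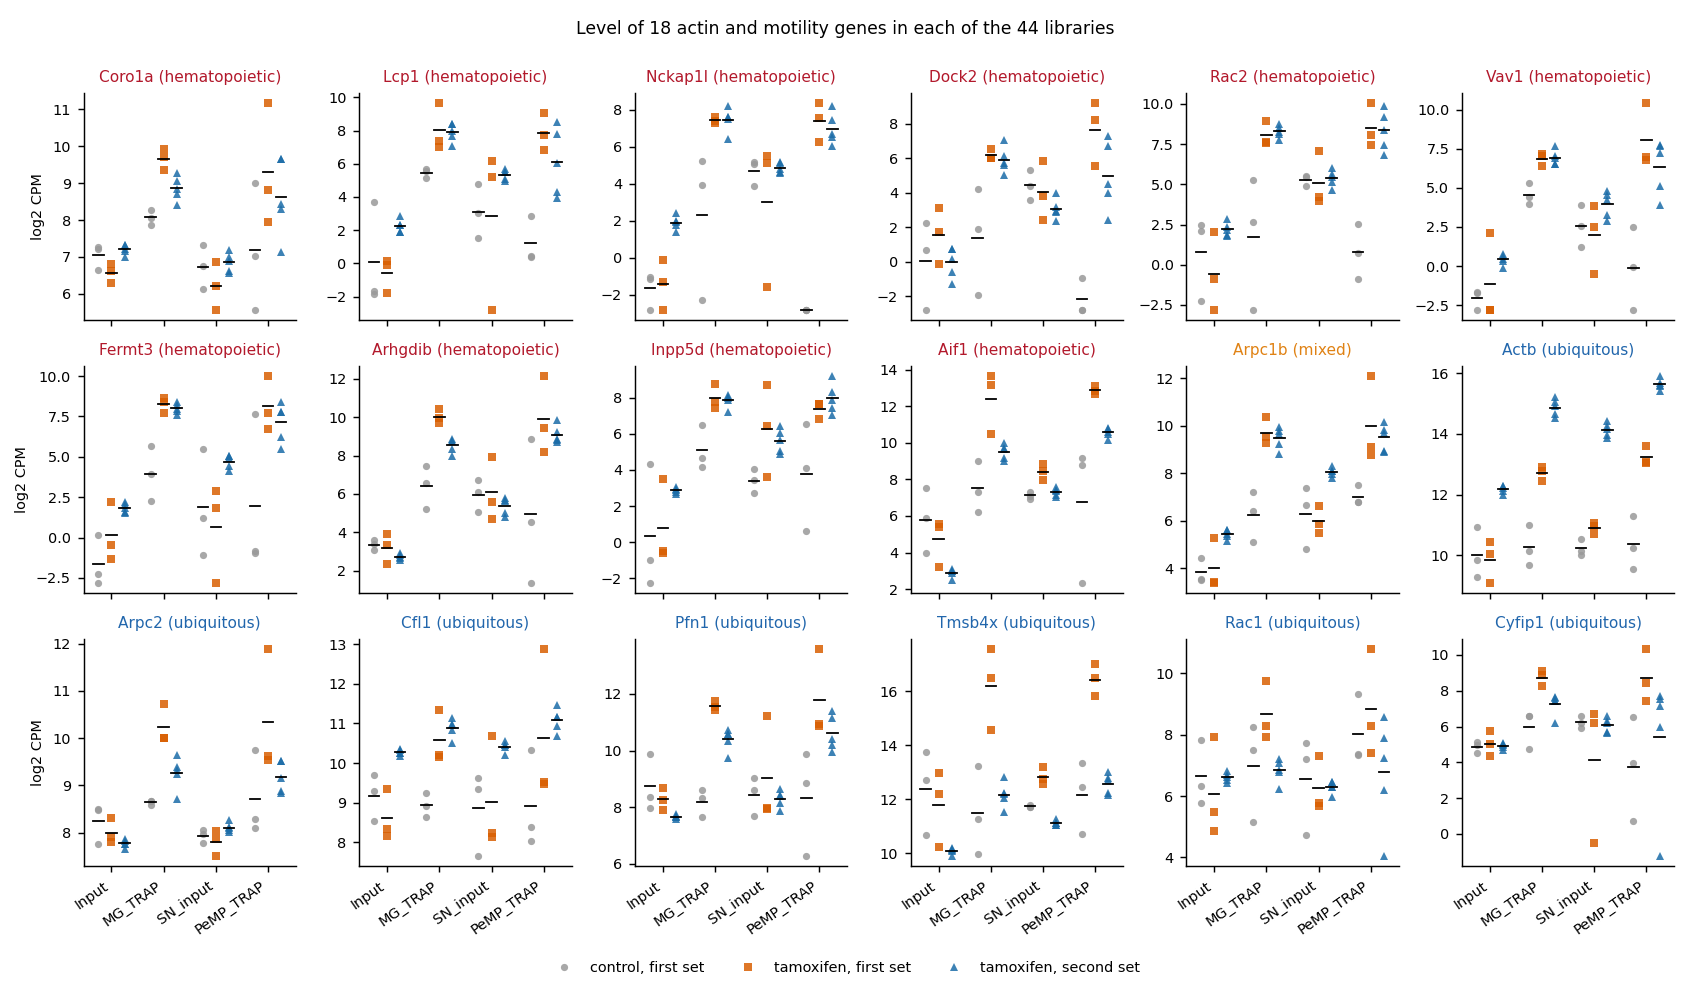
Log2 CPM of 18 members in each library (points) by fraction and set, with the group mean as a bar. Every member drawn has a higher mean in MG_TRAP than in Input in both sets of tamoxifen libraries, and Actb and Tmsb4x shift between sets in opposite directions.

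Ribosomes pulled down from the whole homogenate of tamoxifen mice were enriched in nearly all hematopoietic actin regulators and in part of the general machine. Of the 50 members, 32 were higher in MG_TRAP than in Input and 0 lower (edgeR quasi-likelihood test, adjusted p under 0.05), against 4.67% of all 15710 genes tested called higher, 2.15% lower and 6.82% in either direction. The called members were 16 of 17 hematopoietic, 12 of 26 ubiquitous and 4 of 7 mixed genes. Median log2 fold changes were 6.43, 1.88 and 3.68 in that order, and -0.14 over all genes tested. In 31 members (14 hematopoietic, 12 ubiquitous and 5 mixed) every MG_TRAP library lay above every Input library, against 5.47% of all genes tested (3.6% lay wholly below). Within the first set 20 members were higher, against 2.51% of all genes, within the second 28, against 3.82%, and none was lower in either, against 0.0308% and 2.68%. Relative log expression scaling shifted the median of all genes from -0.14 to -0.66 and that of the members from 3.03 to 2.53, and turned the split of all calls from 733 higher and 338 lower to 594 and 528. B and plasma cell markers moved with these genes. Their 8 genes summed to 12.7 to 59.9 CPM in tamoxifen Input and 499 to 2210 CPM in MG_TRAP. Border macrophage markers summed to 1.18 to 16.5 CPM in tamoxifen Input and 59.7 to 289 CPM in MG_TRAP. The part of both lists in the result was not tested, while the 6 T and NK cell markers summed to 0 to 0.849 CPM in tamoxifen MG_TRAP.

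Among actins and monomer binders, 5 of 8 were higher in MG_TRAP. Actb, the gene of beta-actin, had log2 CPM values of 9.10, 12.06 and 12.28 in Input and 12.43, 14.58 and 15.21 in MG_TRAP (lowest, median and highest of 8, here and below). The groups did not overlap, and the difference was 2.76 ± 0.18 on the log2 scale (adjusted p = 7.67e-15, SE after the sign here and below). Within the sets it was 2.77 ± 0.85 (adjusted p = 0.0742) and 2.75 ± 0.13 (adjusted p = 5.07e-12). Tmsb4x, which sequesters actin monomers, had values of 9.91, 10.19 and 12.96 in Input and 11.53, 12.51 and 17.54 in MG_TRAP. The fractions overlapped over both sets, with higher values in both fractions of the first set, and the difference was 3.10 ± 0.40 (adjusted p = 2.55e-07). Pfn1, the profilin that feeds monomers to growing ends, rose by 2.97 ± 0.40 (adjusted p = 8.83e-07) from 7.57, 7.72 and 8.68 to 9.72, 10.65 and 11.76, without overlap. Gmfg, a hematopoietic factor that prunes Arp2/3 branches, rose by 6.73 ± 0.71, and Cotl1, an actin-binding relative of cofilin, by 3.56 ± 0.57. Cfl1, the main cofilin, had values of 8.15, 10.21 and 10.35 and 10.16, 10.90 and 11.34, which overlapped over both sets but not within either. Its difference of 1.09 ± 0.40 did not pass (adjusted p = 0.0974). Within the second set the Cfl1 difference was 0.68 ± 0.15 (adjusted p = 0.00902). Actg1 at -0.001 ± 0.29 and Tmsb10 at -0.03 ± 0.45, another thymosin beta, did not pass either.

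In the Arp2/3 complex, 3 of 7 subunits passed, and the leukocyte-preferring subunit had the largest difference. Arpc1b, the form of the p40 subunit that leukocytes prefer, had log2 CPM values of 3.39, 5.32 and 5.62 in Input and 8.80, 9.59 and 10.36 in MG_TRAP. No libraries overlapped, and the difference was 4.63 ± 0.54 (adjusted p = 2.85e-08). Its transcripts share 24.3% of their 50-base stretches with other genes. Arpc2, a core subunit made in every cell, went from 7.65, 7.81 and 8.30 to 8.71, 9.52 and 10.72, also without overlap, a difference of 1.83 ± 0.35 (adjusted p = 0.000449). Arpc4, another core subunit, went from 5.95, 7.24 and 7.33 to 8.15, 8.81 and 9.98 and rose by 1.99 ± 0.56, without overlap. The actin-related subunits Actr2 at 0.80 ± 0.40 and Actr3 at 0.95 ± 0.56, with Arpc3 at 0.88 ± 0.38 and Arpc5 at 1.93 ± 0.92, had positive differences that did not pass. For Arpc3 and Arpc5 the MG_TRAP and Input libraries nonetheless did not overlap.

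All 6 members of the WASP and WAVE group were higher. Nckap1l (Hem1), the hematopoietic scaffold of the WAVE complex, had log2 CPM values of -2.81, 1.59 and 2.41 in Input and 6.43, 7.55 and 8.19 in MG_TRAP. The groups were several units apart with no overlap, and the difference was 6.43 ± 0.89 (adjusted p = 1.29e-06). Cyfip1, the Rac-binding WAVE subunit, had values of 4.33, 4.98 and 5.74 and 6.22, 7.61 and 9.10, and differed by 2.89 ± 0.73 (adjusted p = 0.00753), again without overlap. Wasf2, the WAVE2 protein, rose by 4.79 ± 0.59 and Wipf1, which stabilises WASP, by 4.25 ± 0.96. Was, the WASP gene of blood cells, rose by 4.81 ± 1.35, with libraries that overlapped over both sets but not within either. Abi3, another WAVE subunit, went from -2.48, -0.25 and 0.67 to 5.33, 6.11 and 7.33 without overlap and rose by 6.73 ± 1.16, but 66.7% of the 50-base stretches of its transcripts also occur in other genes, mostly in a transcript of Zfp652.

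Filament binders split, with 5 of 9 higher. Aif1 (Iba1), a bundling protein used as a microglial stain, had log2 CPM values of 2.48, 3.04 and 5.59 in Input and 9.03, 9.84 and 13.64 in MG_TRAP. Every MG_TRAP library was above every Input library, by 7.28 ± 0.46 in the fit (adjusted p = 1.59e-15). Lcp1 (L-plastin), the hematopoietic bundler, went from -1.81, 1.89 and 2.87 to 6.99, 7.83 and 9.64, a difference of 6.57 ± 0.95 (adjusted p = 2.98e-06). Coro1a, a coronin of blood cells, had values of 6.28, 7.09 and 7.33 in Input and 8.40, 9.17 and 9.91 in MG_TRAP. Its groups did not overlap, and its difference of 2.23 ± 0.44 (adjusted p = 0.000626) was the smallest among the 16 hematopoietic members that passed. Within the first set alone its difference was 3.12 ± 0.95 and did not pass (adjusted p = 0.0718). Fmnl1, a formin that elongates filaments, was the only hematopoietic member that did not pass, at 0.24 ± 0.80, with values of 4.89, 6.21 and 6.65 in Input and 5.94, 6.21 and 6.49 in MG_TRAP that overlapped. Coro1a and Fmnl1 had the highest Input medians of the hematopoietic members, with Aif1 next at 3.04. Which cells made the Input RNA of Coro1a and Fmnl1 was not tested. Capg, which caps filament ends, rose by 6.15 ± 1.39 and Vasp, which elongates them, by 5.28 ± 1.03. Coro1b at 2.703 ± 0.98, Coro1c at 0.49 ± 0.85 and Diaph1 at 0.72 ± 0.96 did not pass.

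Of the small GTPases and their regulators, 8 of 13 were higher, among them the hematopoietic Rac and not the general one, a contrast that was not itself tested. Rac2 had log2 CPM values of -2.81, 1.95 and 2.82 in Input and 7.58, 8.21 and 8.93 in MG_TRAP, with no overlap and a difference of 6.57 ± 0.74 (adjusted p = 1.3e-08). Rac1, the general form, had 4.86, 6.58 and 7.92 and 6.23, 7.15 and 9.76, which overlapped, and a difference of 0.99 ± 0.57 that did not pass (adjusted p = 0.44). The transcripts of Rac1 share 50.3% of their 50-base stretches with Daglb. Dock2, a Rac exchange factor of blood cells, rose by 5.56 ± 0.88 from -1.29, 0.44 and 3.12 to 5.04, 5.99 and 7.05. Vav1, another exchange factor, rose by 6.63 ± 0.94 from -2.81, 0.39 and 2.11 to 6.41, 6.97 and 7.69. Arhgdib, which holds small GTPases in the cytosol, rose by 6.19 ± 0.54 from 2.38, 2.78 and 3.91 to 7.995, 8.80 and 10.41. None of these 3 overlapped between the fractions. Rhoa, a GTPase of contractile filaments, had 4.20, 6.70 and 6.94 and 6.53, 8.43 and 8.69, which overlapped over both sets but not within either. Its rise was 1.99 ± 0.52. Dock8 at 6.14 ± 1.26, Rhoh at 5.01 ± 1.57 and Rhog at 3.44 ± 0.65 were also higher, whereas Cdc42 at 0.98 ± 0.47 and the mixed members Elmo1, Dock10 and Swap70, between 1.64 and 3.68, did not pass.

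Of the adhesion and membrane linkers, 5 of 7 were higher. Fermt3 (kindlin-3), which activates integrins in blood cells, had log2 CPM values of -1.32, 1.73 and 2.23 in Input and 7.61, 8.09 and 8.65 in MG_TRAP, a difference of 6.69 ± 0.86 (adjusted p = 2.55e-07) without overlap. Inpp5d (SHIP1), a lipid phosphatase, went from -0.60, 2.86 and 3.48 to 7.22, 7.94 and 8.76, a difference of 5.39 ± 0.72 (adjusted p = 6.12e-07), also without overlap. Myo1f, a membrane-linked myosin, had the highest fold change of all members, 7.45 ± 1.43, from -2.81, -0.55 and 1.42 in Input to 4.95, 6.52 and 8.11 in MG_TRAP, and its groups did not overlap. Of the ubiquitous linkers, Msn (moesin) rose by 5.27 ± 0.67 and Tln1 (talin) by 2.72 ± 0.45, while the related Ezr (ezrin) at 0.08 ± 0.67 and Iqgap1 at -0.52 ± 1.35 did not pass.

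**Figure D2:**
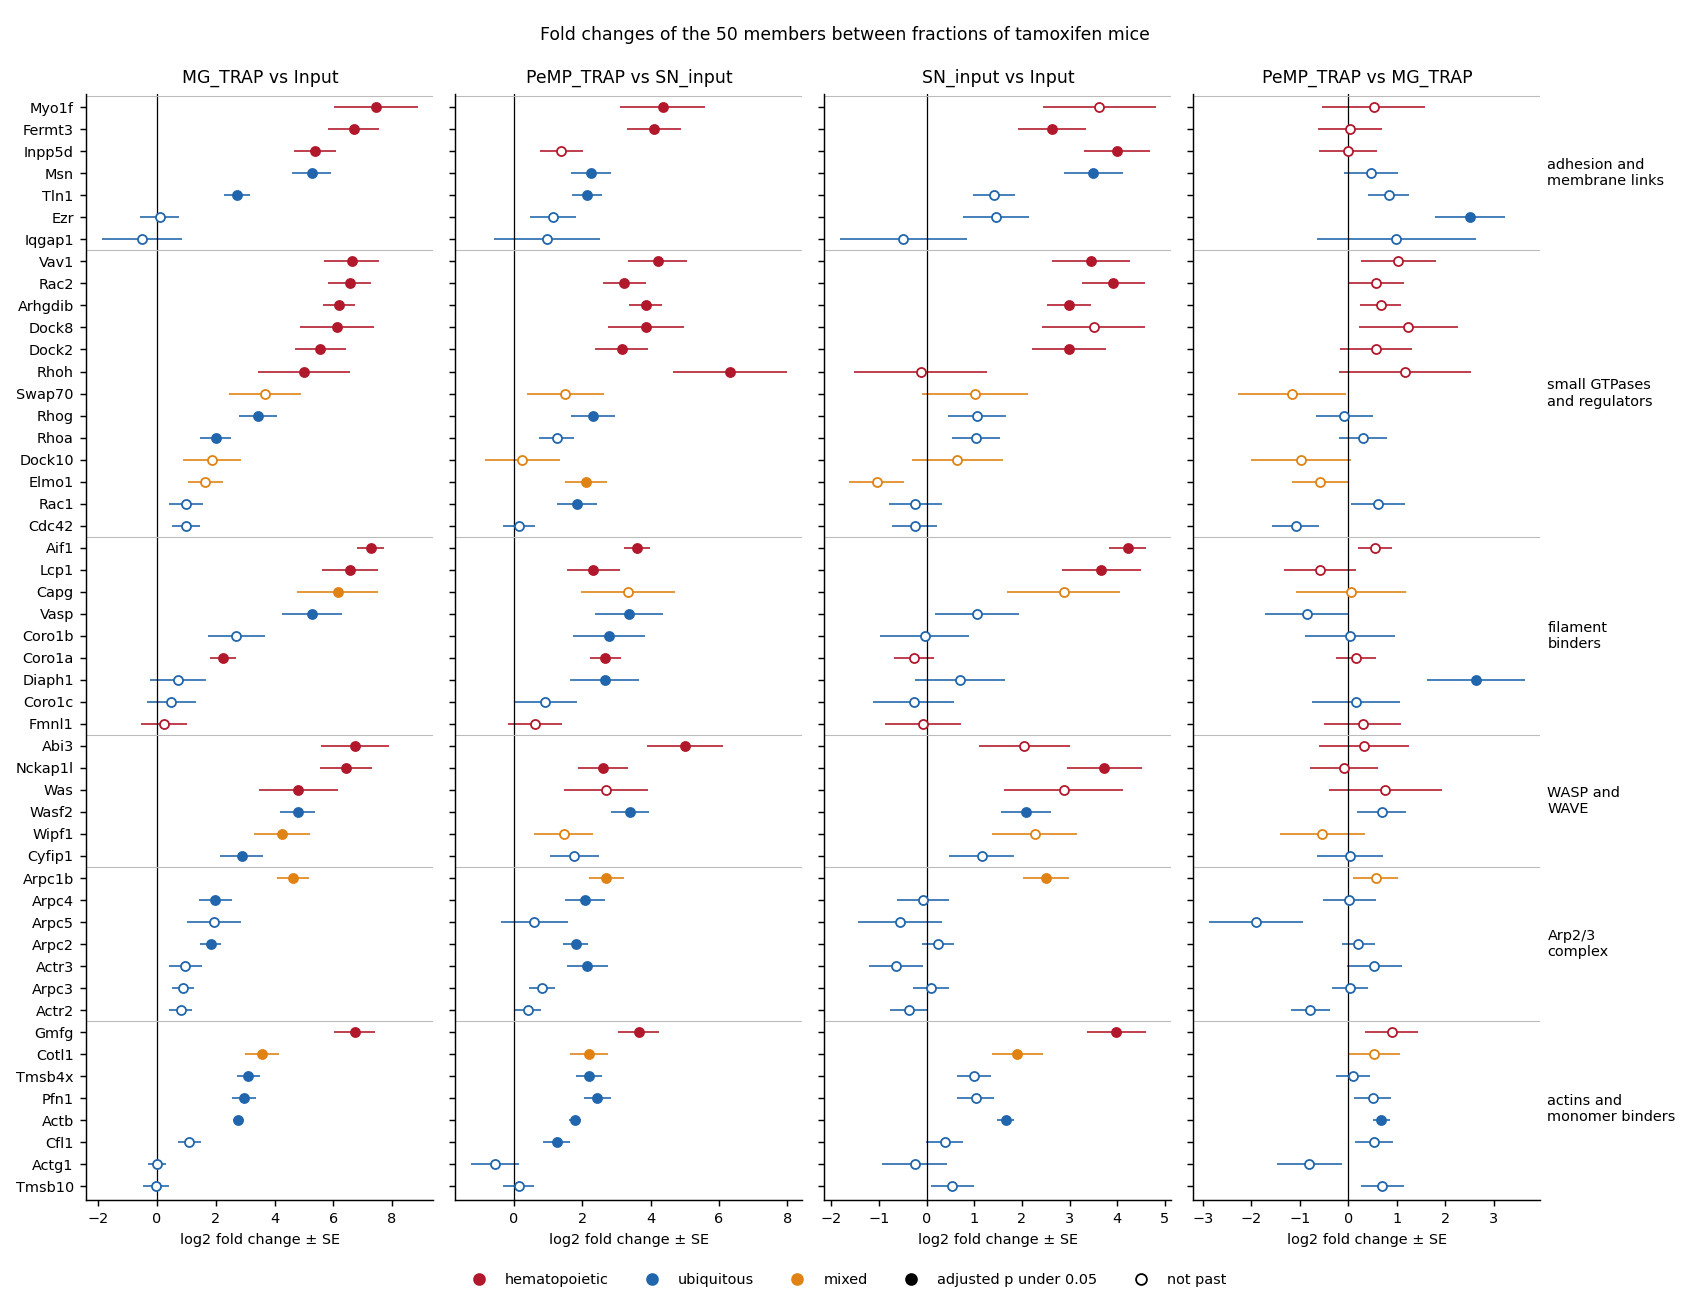
Log2 fold change ± SE of the 50 members in 4 comparisons of tamoxifen fractions, grouped by role and coloured by class, with filled points for adjusted p under 0.05. Hematopoietic members lie farthest right in the first panel, and 3 filled points remain in the last.

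Related genes outside the list, which do similar work in other cells, were called higher about as often as all genes in this comparison. For 20 members a relative was fixed, and in MG_TRAP against Input 17 of these members and 1 relative, Arhgdia, were higher. Of all 15710 genes tested 733 were higher and 338 lower. The median log2 fold change was 5.04 for the 20 members and -0.78 for the relatives. Nckap1 had -1.43 ± 0.90 and Wasf1 -2.40 ± 1.002, neither past the threshold, against 6.43 ± 0.89 for Nckap1l and 4.79 ± 0.59 for Wasf2. The neuronal profilin Pfn2 had -1.91 ± 0.69 and did not pass. In a wider list of 71 genes of the actin pathway, of which 70 were tested, 13 were higher and 0 lower, against the same shares of all genes. The median was 0.43, against -0.14 over all genes tested. Those 13 included the leukocyte integrin chains Itgam (6.23 ± 0.71) and Itgb2 (6.36 ± 0.86), the cortactin relative Hcls1 (6.77 ± 0.73) of blood cells, and the general capping subunit Capzb (2.02 ± 0.39).

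**Figure D3:**
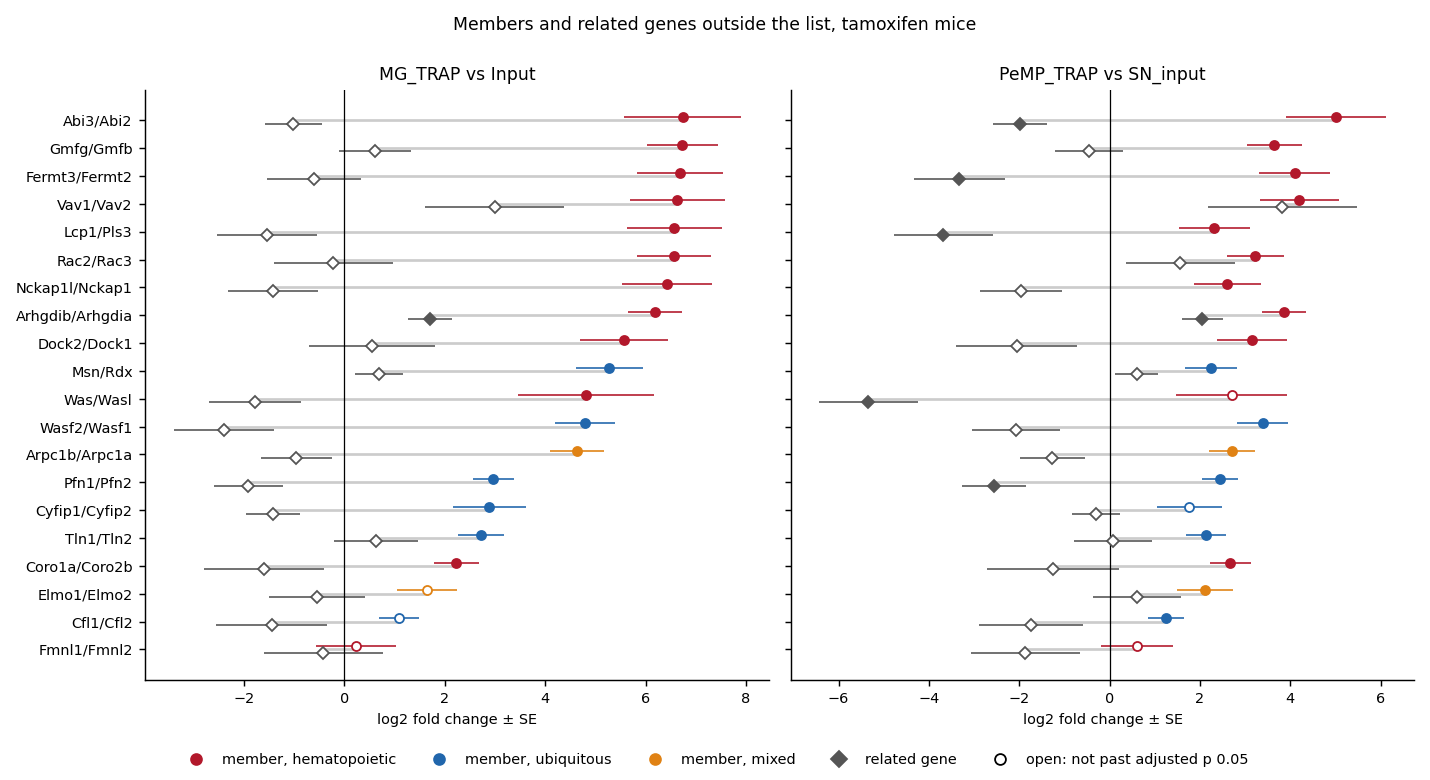
Log2 fold change ± SE of 20 members (circles) and a related gene of each (diamonds) in both enrichments of tamoxifen mice, with open symbols for adjusted p of 0.05 or more. Each member lies to the right of its relative in both panels, and only Arhgdia among the relatives is higher past the threshold.

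Ribosomes pulled down from synaptosomes were enriched in the same machinery relative to their own input. In PeMP_TRAP against SN_input 32 of 50 members were higher and 0 lower, against 6.15% of all genes tested called higher and 26.1% called lower. They were 14 hematopoietic, 15 ubiquitous and 3 mixed members, and 26 of the 32 were also higher in MG_TRAP against Input. The medians were 3.61, 1.79 and 2.10 by class, and -0.75 over all genes tested. Every PeMP_TRAP library lay above every SN_input library for 8 members, against 0.56% of all genes (3.55% lay wholly below). Within the first set 16 members passed, all higher, against 2.4% of all genes higher and 0.47% lower. Within the second 24 passed, all higher, against 4.26% higher and 39.3% lower. B and plasma cell markers summed to 16.3 to 430 CPM in tamoxifen SN_input and 217 to 4640 CPM in PeMP_TRAP, with Cd79a at 0 in every PeMP_TRAP library of tamoxifen mice. Their part in the result was not tested.

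Aif1 had log2 CPM values of 7.04, 7.52 and 8.84 in SN_input and 10.17, 10.79 and 13.13 in PeMP_TRAP, which did not overlap, and a difference of 3.61 ± 0.39 (adjusted p = 1.76e-08). Arhgdib went from 4.71, 5.62 and 7.94 to 8.16, 9.02 and 12.12, a difference of 3.86 ± 0.48 (adjusted p = 5.1e-07). Fermt3 went from -2.81, 4.28 and 5.03 to 5.46, 7.73 and 9.99, a difference of 4.10 ± 0.79 (adjusted p = 0.00023). These 3 hematopoietic genes were high in every PeMP_TRAP library of both sets. Nckap1l, with -1.59, 4.95 and 5.50 and 6.04, 7.07 and 8.35, also did not overlap and differed by 2.60 ± 0.74 (adjusted p = 0.00636). Rac2 had 3.99, 5.31 and 7.10 and 6.84, 8.23 and 10.04, with overlap through SN_input replicate D, and differed by 3.22 ± 0.63 (adjusted p = 0.000262). Coro1a differed by 2.67 ± 0.45, Vav1 by 4.20 ± 0.87, Dock2 by 3.15 ± 0.78 and Lcp1 by 2.32 ± 0.78, all past the threshold with overlapping libraries. Rhoh had the highest fold change, 6.31 ± 1.67, from -2.81, -1.57 and 1.87 to -2.81, 3.66 and 8.24, with 3 of 8 PeMP_TRAP libraries at a count of 0. Abi3 followed at 5.01 ± 1.11, from -2.81, 1.71 and 2.48 to -2.81, 5.70 and 8.99, and Myo1f at 4.35 ± 1.25, from -2.81, 2.77 and 4.65 to -2.81, 6.59 and 8.87, and both overlapped. Inpp5d at 1.39 ± 0.63 (adjusted p = 0.0886), Was at 2.701 ± 1.23 and Fmnl1 at 0.60 ± 0.79 did not pass.

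Among the ubiquitous members, Actb had 10.71, 13.92 and 14.42 in SN_input and 13.05, 15.49 and 15.89 in PeMP_TRAP, a difference of 1.78 ± 0.18 (adjusted p = 6.47e-09), with overlap between the sets. Cfl1 had 8.12, 10.42 and 10.68 and 9.48, 11.05 and 12.87, which overlapped, and the smallest difference that passed, 1.25 ± 0.40 (adjusted p = 0.0145). Tmsb4x differed by 2.20 ± 0.38 and Pfn1 by 2.44 ± 0.39. Arpc2 had 7.51, 8.05 and 8.26 and 8.84, 9.52 and 11.88, which did not overlap, and differed by 1.80 ± 0.36 (adjusted p = 0.000333). Arpc1b rose by 2.701 ± 0.51 and the WAVE2 gene Wasf2 by 3.39 ± 0.56, both without overlap. Actr3 (2.14 ± 0.60), Cfl1, Coro1b (2.78 ± 1.04), Diaph1 (2.65 ± 1.01), Rac1 (1.85 ± 0.59) and Elmo1 (2.10 ± 0.62) passed here and did not pass in the homogenate. None of these 6 differed between the enrichments in the test of that difference given below. Cyfip1 had a difference of 1.76 ± 0.72 (adjusted p = 0.0562), with PeMP_TRAP replicate J at -1.23 and the other 7 libraries at 5.97 or more.

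Relatives outside the list were called lower about as often as all genes in this comparison. Of the 20 relatives, 5 were lower in PeMP_TRAP than in SN_input, against 26.1% of all genes tested, namely Wasl (-5.34 ± 1.09), Abi2 (-1.99 ± 0.59), Pfn2 (-2.56 ± 0.71), Fermt2 (-3.33 ± 1.004) and Pls3 (-3.68 ± 1.09). Only Arhgdia was higher (2.05 ± 0.46), against 17 of the 20 members. Of the 70 genes tested in the wider pathway list 13 were higher and 13 lower, against 6.15% and 26.1% of all genes, with a median of -0.04. The lower ones included the adhesion protein Vcl (vinculin, -6.72 ± 1.70), the severing protein Gsn (gelsolin, -3.68 ± 0.97) and the branch stabiliser Cttn (cortactin, -3.54 ± 1.28).

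The synaptosome fraction itself already held more RNA of several members than the homogenate, before any immunoprecipitation. In SN_input against Input 15 members were higher and 0 lower, against 2.08% of all genes called higher, 0.465% lower and 2.55% in either direction. They were 10 hematopoietic, 3 ubiquitous (Actb, Msn and Wasf2) and 2 mixed (Arpc1b and Cotl1) members. Medians were 3.46, 0.46 and 1.90 by class, and -0.02 over all genes. In the second set by itself 17 members passed, against 0 when the first set was fitted by itself, where 11 had an unadjusted p under 0.05. Over all genes 3.46% were higher in the second set alone and 0.0463% in the first, where 6.05% had such a p. The hematopoietic median was 3.12 in the first set and 3.08 in the second. Scaling by total counts moved the median of all genes to -1.07 and that of the members from 1.06 to 0.115, with 7 members higher and 1 lower. All genes then split into 93 higher and 230 lower, against 327 and 73. With the 2 fractions fitted alone the count was 23 higher and 1 lower, against 11.7% and 7.31% of all genes. Without replicate G or H it was 10, against 1.19% and 1.28% of all genes higher. Microglial markers moved in the same direction, from 82.9 to 156 CPM in tamoxifen Input to 861 to 1240 CPM in SN_input. So did astrocyte markers, from 895 to 1410 CPM to 5830 to 10900 CPM, oligodendrocyte markers, from 2900 to 5310 CPM to 8020 to 66500 CPM, and border macrophage markers, from 1.18 to 16.5 CPM to 20.9 to 53.8 CPM. The part of these cell types in the result was not tested.

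Aif1 rose by 4.22 ± 0.40 (adjusted p = 6.09e-10) from the Input to the SN_input values above, and its libraries did not overlap. Inpp5d, at 3.61, 5.84 and 8.72 in SN_input, rose by 3.99 ± 0.69, and Gmfg, at -0.91, 0.72 and 1.30 in Input and 2.66, 4.42 and 5.57 in SN_input, by 3.98 ± 0.62. Arhgdib rose by 2.99 ± 0.46 and Rac2 by 3.92 ± 0.65, and all 4 were free of overlap, as were 7 members in all, against 2.66% of all genes (2.12% lay wholly below). The smallest differences that passed were those of Actb, 1.66 ± 0.18, Cotl1, 1.90 ± 0.53, from 2.67, 4.43 and 4.66 to 4.76, 5.87 and 7.53, and Wasf2, 2.09 ± 0.53, from 2.28, 3.56 and 3.99 to 0.36, 5.65 and 6.49. For Nckap1l the difference was 3.73 ± 0.79 and for Lcp1 3.67 ± 0.83, with overlap through SN_input replicate D, at -1.59 and -2.81 against at least 4.56 in the other SN_input libraries of both genes. Without replicate D 14 members passed. Coro1a at -0.27 ± 0.42, Fmnl1 at -0.07 ± 0.80 and Rhoh at -0.12 ± 1.39 were hematopoietic members with a difference below 0 that did not pass. The Arp2/3 subunits other than Arpc1b lay between -0.65 and 0.24, and none passed.

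The enrichment over its own input was smaller in synaptosomes than in the homogenate for part of the list. The interaction term, (PeMP_TRAP over SN_input) minus (MG_TRAP over Input), was lower than 0 for 9 members and higher for 0, against 10.9% of all genes lower and 0.388% higher. The median over members was -1.13, against -0.79 over all genes tested. The 9 were Lcp1 (-4.25 ± 1.09), Inpp5d (-4.004 ± 0.90), Nckap1l (-3.82 ± 1.03), Aif1 (-3.67 ± 0.51), Rac2 (-3.34 ± 0.84), Gmfg (-3.08 ± 0.79), Msn (-3.03 ± 0.81), Arhgdib (-2.33 ± 0.62) and Actb (-0.98 ± 0.25). Coro1a had an interaction of 0.44 ± 0.59 (adjusted p = 0.785), and Fmnl1 one of 0.37 ± 1.12. The first set by itself gave 0 members, with 8 at an unadjusted p under 0.05 (6.81% of all genes). The second gave 16, all lower, which is near the 28.9% of all genes called lower in that fit.

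The 2 immunoprecipitates themselves differed in few members. In PeMP_TRAP against MG_TRAP 3 members were higher and 0 lower, against 3.17% of all genes called higher and 22% called lower, and in all 50 the libraries of the 2 groups overlapped, as they did in all genes but 0.0955% that lay wholly above and 1.77% wholly below. No hematopoietic member passed in the fit of both sets, with a median of 0.54 over the 17, 0.26 over the ubiquitous and -0.53 over the mixed members, and -0.57 over all genes. Scaling moved these values. The median of all genes was -1.10 with relative log expression scaling and -1.30 with total counts, and the calls were then 1 higher and 3 lower, against 1.83% and 26.5% of all genes, and 0 higher and 3 lower, against 1.24% and 27.3%. Leaving out replicate D gave 3 higher and 3 lower, against 3.8% and 25%. The first set by itself gave 0 calls among members, and the second gave 5 higher and 4 lower, against 4.42% of all genes higher and 38.2% lower in that fit (the difference between the sets was not tested). The 5 were Actb, Diaph1, Ezr, Cotl1 and the hematopoietic Aif1 (0.85 ± 0.21, adjusted p = 0.00322), and the 4 were Actr2, Cdc42, Dock10 and Elmo1.

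Ezr, a membrane linker, had log2 CPM values of 3.77, 4.42 and 6.40 in MG_TRAP and 2.58, 7.49 and 9.12 in PeMP_TRAP, a difference of 2.51 ± 0.71 (adjusted p = 0.00825). Diaph1, a formin, had -2.81, 4.97 and 6.10 and -2.81, 6.96 and 9.20, a difference of 2.63 ± 1.01 (adjusted p = 0.0492), with PeMP_TRAP replicates D and G at -2.81 and -0.32 and the others at 3.63 or more. Actb had 12.43, 14.58 and 15.21 and 13.05, 15.49 and 15.89, a difference of 0.68 ± 0.17 (adjusted p = 0.0037), but under scaling by total counts this was -0.00722, and the first set alone gave 0.58 ± 0.80 (adjusted p = 0.792). So the direction for Actb depends on the scaling. Among well-measured members with no call, the difference was 0.21 ± 0.34 for Arpc2, 0.16 ± 0.42 for Coro1a and 0.10 ± 0.36 for Tmsb4x. A p that misses the threshold does not show equal levels.

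Control mice, whose ribosomes should carry little GFP, give the background of the pull-down. The tamoxifen and control libraries of MG_TRAP could be compared in the first set for 49 members (Actg1 was too low to test), and 0 passed, as did 0% of all 14771 genes. At an unadjusted p under 0.05 there were 17 members, all higher, against 15.9% of all genes in either direction, and DESeq2 called 14 higher, against 3.2% of all genes. In 39 of the 49 every tamoxifen library of the first set was above every control library, against 15.3% of all genes tested, and these were 16 hematopoietic, 17 ubiquitous and 6 mixed members. Aif1 had log2 CPM values of 6.24, 8.99 and 7.30 in control replicates A to C and 10.46, 13.17 and 13.64 in tamoxifen replicates D to F, a difference of 4.85 ± 1.11 (adjusted p = 0.0699). Tmsb4x had 9.97, 13.22 and 11.26 and 14.55, 16.49 and 17.54, a difference of 4.42 ± 0.89 (adjusted p = 0.0582). For both genes the 3 tamoxifen libraries lay above the 3 control libraries, although neither passed. Pfn1 had 7.66, 8.32 and 8.61 and 11.52, 11.42 and 11.76, and Nckap1l 3.96, 5.22 and -2.25 and 7.40, 7.63 and 7.31, also apart. Rac1 had 7.50, 5.16 and 8.25 and 9.76, 7.94 and 8.29, which overlapped. In Input and in SN_input 0 members passed either, with medians of -0.17 and -0.10, 2 members each at an unadjusted p under 0.05 (3.06% and 3.35% of all genes), and 0 by DESeq2. In Input the groups were apart with tamoxifen above for 2 members and below for 2, against 4.15% and 2.82% of all genes. In SN_input they were apart above for 5 and below for 2, against 3.57% and 6.63%. Cell type markers moved with the MG_TRAP values. From control to first-set tamoxifen MG_TRAP, microglial markers went from 837 to 2660 CPM to 10200 to 22000 CPM, B and plasma cell markers from 90.8 to 225 CPM to 611 to 2210 CPM, and border macrophage markers from 0 to 10.7 CPM to 124 to 289 CPM. Neuron markers went from 6450 to 8670 CPM down to 1540 to 2480 CPM. None of these ranges overlapped, and their part in the result was not tested.

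In PeMP_TRAP 17 members were higher in tamoxifen than in control mice and 0 lower, against 5.56% of all genes in each direction. They were 8 hematopoietic, 6 ubiquitous and 3 mixed members. In 25 members every tamoxifen library was above every control library, against 12.2% of all genes. Nckap1l and Was were at a count of 0 in all 3 control libraries. Against the highest floor of 3 counts per library, the mean of the 3 tamoxifen libraries was at least 45.5-fold higher for Nckap1l (adjusted p = 0.00721). For Was it was at least 24.1-fold higher (adjusted p = 0.0275). The bounds hold for the mean, not for each library, and cover counting error only. Was also had a count of 0 in tamoxifen PeMP_TRAP replicates G and K of the second set. For Was the tamoxifen libraries of the first set were at 7.43, 4.80 and 7.13. For Nckap1l they were at 6.24, 8.35 and 7.57, all above control. Dock2 had -2.81, -2.81 and -0.94 in control and 9.18, 5.55 and 8.21 in tamoxifen libraries, a fitted difference of 10.31 ± 2.28 (adjusted p = 0.00721). Its control counts were 0, 0 and 1, under the floor, so the size of the difference is not measured. It was 9.90 to 13.98 with 1 replicate left out. Rac2 had -0.85, 2.51 and 0.73 and 10.04, 7.43 and 8.06, a difference of 7.37 ± 1.86 (adjusted p = 0.0131). In these genes the control libraries lay near the floor and the tamoxifen libraries well above it. Tmsb4x had 10.73, 13.33 and 12.45 and 16.997, 16.47 and 15.81, and a difference of 3.66 ± 0.86 (adjusted p = 0.00933). Aif1 had 2.34, 8.77 and 9.19 and 12.86, 13.13 and 12.66, and a difference of 4.27 ± 1.08 (adjusted p = 0.0134). The smallest differences that passed were those of Actb (2.42 ± 0.71, from 9.56, 10.26 and 11.30 to 13.60, 13.05 and 13.06), Arpc3 (2.87 ± 0.90, from 4.50, 3.66 and 6.35 to 9.22, 8.17 and 7.55) and Pfn1 (2.98 ± 0.93, from 8.87, 6.28 and 9.87 to 13.57, 10.87 and 10.93), all without overlap. Fermt3, with -0.85, 7.66 and -0.94 and 9.99, 6.74 and 7.68, overlapped through control replicate B and did not pass (adjusted p = 0.346). The hematopoietic median was 5.87 as fitted and 4.27 with genes at 0 in control set to their bounds, against 1.64 for the ubiquitous members. The 17 calls fell to 7 without replicate F (1.7% of all genes higher), to 11 without replicate D (4.36%) and to 0 when only these 6 libraries were fitted (0.261%). The median over members was 2.51 as fitted, and 2.58, 2.01 and 2.66 in those fits. Summed microglial markers were 237 to 5310 CPM in control PeMP_TRAP and 10600 to 55300 CPM in tamoxifen PeMP_TRAP of the first set. B and plasma cell markers were at 1.64 to 338 and 217 to 4640 CPM, and endothelial markers had medians of 745 and 91.3 CPM, in the same order. The part of these cell types in the result was not tested.

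**Figure D4:**
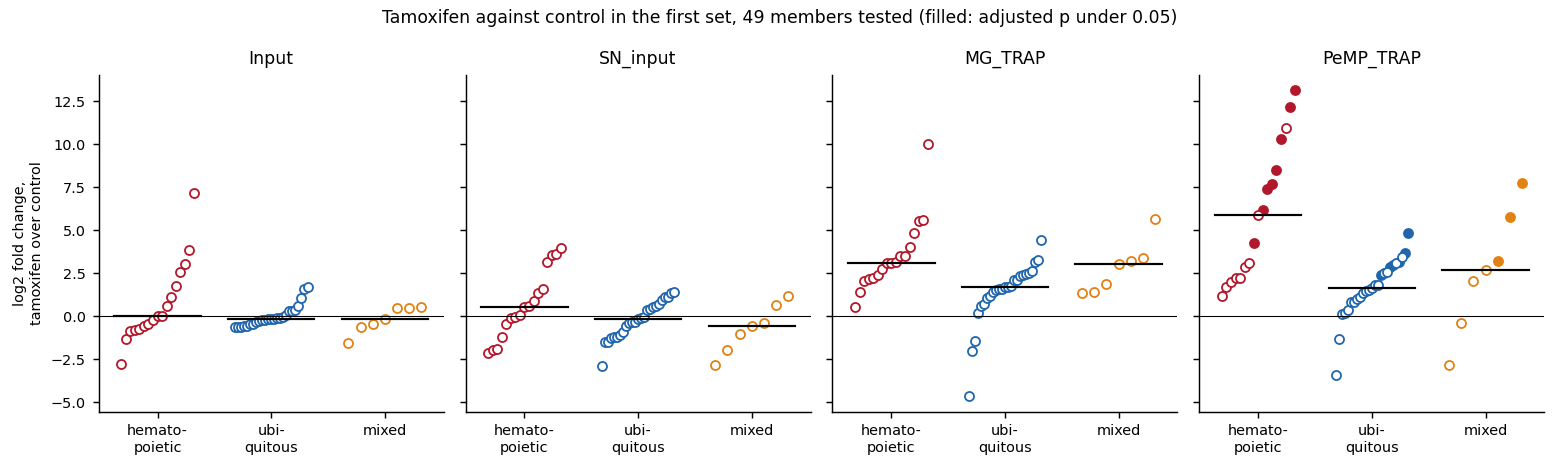
Log2 fold change of tamoxifen over control in the first set for 49 members by class, 1 panel per fraction, with medians as bars and filled points for adjusted p under 0.05. Filled points occur in PeMP_TRAP alone, and the points of Input and SN_input scatter around 0.

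Control MG_TRAP was not free of the members' RNA, and no member passed in edgeR in either control immunoprecipitate against its input. In control MG_TRAP against Input 0 members passed, against 0.0135% of all genes higher, with 11 at an unadjusted p under 0.05 (7.45% of all genes) and 4 called higher by DESeq2 (1.14%). The hematopoietic median was 3.43 as fitted, or 2.84 with Was, which was at 0 in Input, set to its bound, and 0.39 for ubiquitous members. In 7 hematopoietic members every control MG_TRAP library lay above every control Input library, against 5.84% of all genes. Lcp1 had values of -1.84, 3.67 and -1.64 in control Input and 5.66, 5.13 and 5.59 in control MG_TRAP, a difference of 3.50 ± 1.52 (adjusted p = 0.589). Vav1 had -2.81, -1.72 and -1.64 and 4.001, 4.42 and 5.30, a difference of 7.92 ± 1.93 (adjusted p = 0.2). For both genes every control MG_TRAP library lay above every control Input library and below every tamoxifen MG_TRAP library. In control PeMP_TRAP against SN_input 0 members passed, as did 0% of all genes (7 members at an unadjusted p under 0.05, against 17.4% of all genes). DESeq2 called 2 higher and 3 lower, near its 3.01% and 5.63% of all genes. There the hematopoietic median was -1.93 and the ubiquitous 0.491, against -0.27 over all genes. Of the 17 hematopoietic members 7 had a positive difference, and many control PeMP_TRAP counts lay near the floor. In 3 hematopoietic members every control PeMP_TRAP library lay below every control SN_input library and in 0 above, against 18.6% of all genes below and 1.44% above, so the count of 3 of 17 was near the background. The test of whether the homogenate enrichment differed by treatment was passed by 0 members in edgeR (0% of all genes, 8 members at an unadjusted p under 0.05 against 9.19% of all genes, and 3 higher by DESeq2 against 0.704%). In synaptosomes it was larger in tamoxifen mice for 3 members, against 0.914% of all genes higher, 0.325% lower and 1.24% in either direction, namely Capg (10.58 ± 2.702, with PeMP_TRAP values of 0.46, -2.81 and -0.94 in control and 8.96, 5.66 and 5.84 in tamoxifen mice), Dock2 (10.26 ± 2.61) and Nckap1l, whose fitted value rests on control libraries at 0. None of the 3 passed when replicate A, C, D, E or F was left out. Control PeMP_TRAP counts were also at or under the floor for Capg (3, 0 and 1) and Dock2 (0, 0 and 1). With 1 replicate left out the fitted value was 8.67 to 13.43 for Capg and 9.41 to 13.99 for Dock2.

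A ratio within each library compares the 2 classes without any scaling between libraries. The summed counts of hematopoietic over ubiquitous members, on the log2 scale, were -5.18 ± 0.43 in tamoxifen Input and -3.48 ± 0.39 in MG_TRAP (SD, n = 8 each). All 8 MG_TRAP libraries, at -3.913 to -2.696, lay above all 8 Input libraries, at -5.87 to -4.39. In tamoxifen Input, Coro1a and Fmnl1 made up most of the hematopoietic sum, and they differed least between these fractions among the hematopoietic members. In replicate G they had 4792 and 2203 of 8577 hematopoietic counts in Input, against 11512 and 1651 of 70651 in MG_TRAP. A ratio without them was not computed. In SN_input the ratio was -4.71 ± 0.80 and in PeMP_TRAP -3.57 ± 0.41 (SD, n = 8 each). SN_input split by set, at -3.80 ± 0.40 in the first (n = 3) and -5.26 ± 0.21 in the second (n = 5), so SN_input and PeMP_TRAP were apart within each set and not over both. Without Actb and Tmsb4x the tamoxifen ratios were -3.74 ± 0.12 in Input, -0.88 ± 0.82 in MG_TRAP, -2.38 ± 0.58 in SN_input and -0.58 ± 0.68 in PeMP_TRAP (SD, n = 8 each). Control MG_TRAP had a ratio of -3.21 ± 0.56 (SD, n = 3), inside the range of tamoxifen MG_TRAP. The share of reads in the 50 members, given above, did not overlap between control and tamoxifen MG_TRAP. The difference of the class medians of log2 CPM was -3.24 to -1.699 in control MG_TRAP and -1.47 to -0.187 in the 8 tamoxifen libraries, also without overlap. Without Actb and Tmsb4x the ratio was -2.01 to -1.59 in control MG_TRAP, below the first-set tamoxifen libraries at -1.18 to 0.570, whereas the second set reached down to -1.62.

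**Figure D5:**
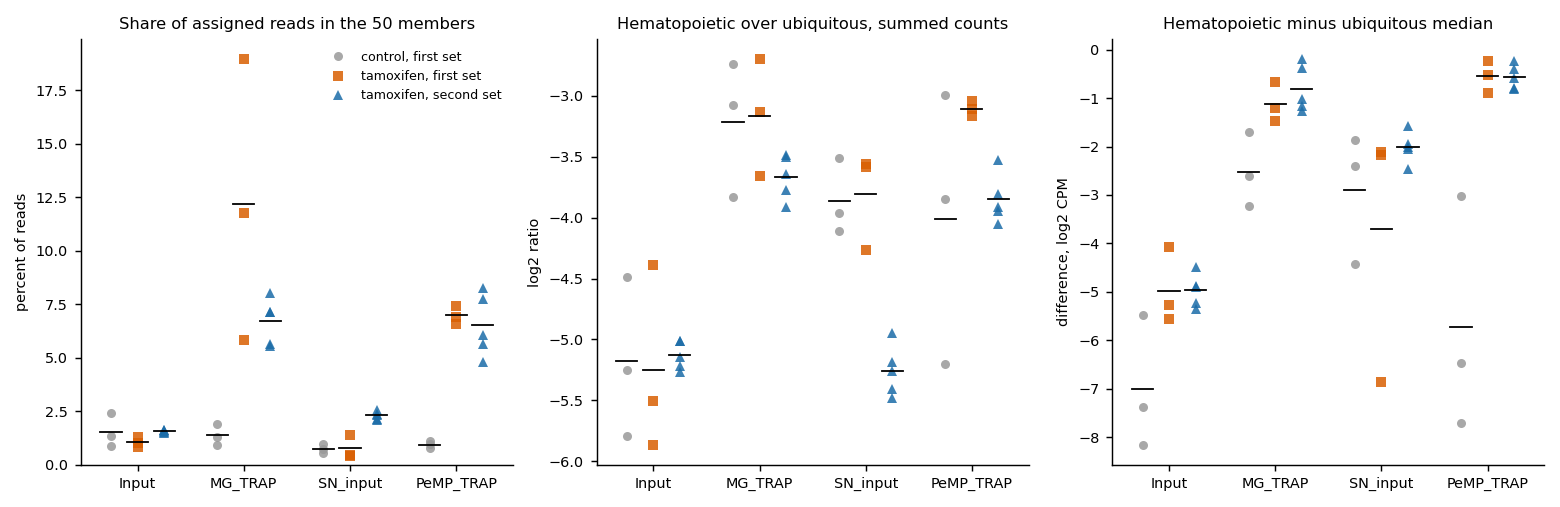
For each library (points) by fraction and set, the percent of assigned reads in the 50 members, the log2 ratio of summed hematopoietic to ubiquitous counts, and the difference of their median log2 CPM, with group means as bars. The share and the difference of medians are higher in every tamoxifen MG_TRAP library than in control MG_TRAP, whereas the ratio of sums overlaps between them.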

How the data were processed

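The authors deposited HTSeq read counts per gene, 1 file for each of 44 libraries, and these whole-number counts were used. Their table of log2 CPM and comparisons for the first set was not used. Libraries were made with SMART-Seq and NEBNext Ultra kits, per the labels' protocols. The submitters' processing notes list FastQC 0.11.7, Trimmomatic 0.38, Bowtie2 2.3.5, STAR 2.7.0d, HTSeq 0.9.1 and edgeR without roles. The genome build and counting options are not given in the sources used here. Lines that name no gene held 27% to 93.4% of all reads in a file and stayed out of library sizes.

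Counts of the 50714 shared identifiers were scaled by TMM and tested with edgeR 4.0.16 (R 4.3.3), quasi-likelihood, after filterByExpr with a minimum count of 10, with Benjamini-Hochberg adjustment over all genes tested and a threshold of 0.05. Comparisons among tamoxifen fractions used 32 libraries with library set as a term, and those with control mice the 24 libraries of the first set. The second set's synaptosome immunoprecipitate carries the label SN_TRAP and was treated as PeMP_TRAP. DESeq2 1.42.0, other scalings, no filter, other library choices and leaving out each replicate were alternatives. Scripts were tested on simulated data. The members and lists were chosen with earlier results of these data known. Values by library are given for a fixed subset of 18 members and for the 3 highest and 3 lowest fold changes past the threshold in any comparison. Fmnl1 was added after its values were seen. Any member may be named. Shared sequence is the percent of 50-base stretches of a member's transcripts that occur in other genes.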

Additional observations from a re-analysis of the deposited data

Results flagged for a closer look

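Among 76 groups of 8 libraries (18 members and the class ratio, in 4 fractions) tested for a library far from the others, 15 had one, where chance gives about 1 in 20. The SN_input library of tamoxifen replicate D accounted for 9 of them. In log2 CPM it was the lowest for Lcp1 (-2.81), Fermt3 (-2.81), Nckap1l (-1.59), Vav1 (-0.49) and Cyfip1 (-0.49), and the highest for Pfn1 (11.21), Arhgdib (7.94), Rac1 (7.32) and Dock2 (5.82). The PeMP_TRAP library of the same replicate was the highest for Pfn1 (13.57), Arhgdib (12.12), Arpc1b (12.07) and Arpc2 (11.88). The Input library of replicate E was the highest for Arpc2 (8.30), and PeMP_TRAP of replicate J the lowest for Cyfip1 (-1.23).

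For 9 members the enrichment differed between synaptosomes and homogenate by the interaction test, at -4.25 for Lcp1, -4.00 for Inpp5d, -3.82 for Nckap1l, -3.67 for Aif1, -3.34 for Rac2, -3.08 for Gmfg, -3.03 for Msn, -2.33 for Arhgdib and -0.98 for Actb. Of all 15710 genes tested 1709 were lower and 61 higher, with a median of -0.79 against -1.13 over the members. None of the 9 passed in the first set by itself. For 3 members the synaptosome enrichment differed between tamoxifen and control mice, at 13.19 for Nckap1l, 10.58 for Capg and 10.26 for Dock2 as fitted, with control values near or at a count of 0. Over all 14771 genes tested there 135 were higher and 48 lower.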

How the results depend on the processing

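In the first set alone the count of members called was 20 for MG_TRAP against Input, 16 for PeMP_TRAP against SN_input, and 0 for SN_input against Input, PeMP_TRAP against MG_TRAP and the enrichment difference. Over all genes the calls were 329, 372, 6 and 0 of 12968, in that order and without the enrichment difference. In the second set alone the member count was 9 for PeMP_TRAP against MG_TRAP, where 6653 of 15617 genes were called. It was 16 for the enrichment difference, near the share of all genes given above. With the compared groups fitted alone it was 1 for PeMP_TRAP against MG_TRAP (1363 of 12998 genes), 24 for SN_input against Input (2779 of 14620 genes) and 0 for tamoxifen against control PeMP_TRAP. With total counts it was 8 for SN_input against Input (323 of 15710 genes), 1 for tamoxifen against control MG_TRAP and 6 for the synaptosome enrichment by treatment. Tamoxifen against control MG_TRAP gave 2 with relative log expression, 2 with no filter and 14 with DESeq2. With no filter the control MG_TRAP against Input count was 1, and the enrichment by treatment 2 in the homogenate and 8 in synaptosomes. DESeq2 gave 4 for control MG_TRAP against Input, 5 for control PeMP_TRAP against SN_input, and 3 for the enrichment by treatment in homogenate, with the shares of all genes given above. It gave 12 for the enrichment by treatment in synaptosomes. The calls over all genes also changed with the setting. A count given with no share of all genes is therefore no result about the members.

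Leaving out each replicate gave 30 to 32 for MG_TRAP against Input, 30 to 33 for PeMP_TRAP against SN_input, 2 to 6 for PeMP_TRAP against MG_TRAP, 10 to 14 for SN_input against Input and 7 to 12 for the enrichment difference. Of 15209 to 16087 genes tested, 840 to 1157, 4268 to 5716, 2976 to 4891 and 195 to 509 were called, in that order and without the enrichment difference. Member counts with a replicate left out were 0 to 2 for tamoxifen against control MG_TRAP, 7 to 17 for PeMP_TRAP and 0 to 4 for the synaptosome enrichment by treatment. Replicate letters were not used as pairs, since 7 of 66 same-letter pairs correlated above 0.1 (median 0.0215, highest 0.224), but the labels do not say whether a letter is 1 animal, and pairing was not excluded. With a replicate block the counts were 33 for MG_TRAP against Input, 31 for PeMP_TRAP against SN_input, 2 for PeMP_TRAP against MG_TRAP, 14 for SN_input against Input, 10 for the enrichment difference, 1 for control MG_TRAP against Input, and 2 and 5 for the enrichment by treatment in homogenate and synaptosomes. Of 17961 genes tested in tamoxifen libraries, 1593, 5696, 3720, 432 and 738 were called, in the same order.

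The difference in the class ratio without Actb and Tmsb4x was 2.86 for MG_TRAP against Input, 1.80 for PeMP_TRAP against SN_input, 1.36 for SN_input against Input and 0.301 for PeMP_TRAP against MG_TRAP. With medians it was 4.05, 2.09, 2.33 and 0.362 in the same order, and the last turned sign under both from -0.093. For named members 1001 values kept direction and call, 179 kept direction and lost the call, and 1 turned, Actb in PeMP_TRAP against MG_TRAP, at -0.00722 with total counts. Where no cause is given, the cause was not tested. A count of 3 reads corresponds to 4.05 CPM in the shallowest library, tamoxifen PeMP_TRAP replicate F, and to 0.0847 CPM in the deepest, replicate G of the same group.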
